A study of Saccharomyces cerevisiae with 4 samples.

Results

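Among the 200 bp bins of the yeast genome, 518 of 56934 held at least 2 distinct ChIP-exo positions in each of the 3 tagged libraries and 0 in the untagged one. A position is an index and a strand counted once, whatever its number of tags. The bins were chosen by these position counts, so the counts of the members are a description and carry no test. Chromosome XI, whose indices lie off the gene table, and the ribosomal DNA stretch of chromosome XII were left out. The rule called 0.91% of all bins. On its own, a count of at least 2 positions was met in the Xrn1 library by 4.77% of bins, in the Dcp2 library by 13.9%, in the Lsm1 library by 6.87% and in the untagged library by 0.699%.

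The libraries came from Saccharomyces cerevisiae of the background strain yMC458, grown in YPD, a rich medium with glucose. The 3 tagged strains carry XRN1-TAP, DCP2-TAP or LSM1-TAP, and the fourth (No-TAP) has no TAP tag. The tagged libraries are called Xrn1, Dcp2 and Lsm1 here after their proteins, and all counts are library counts. Each was fixed with 1% formaldehyde and pulled down on rabbit IgG beads, which bind the protein A part of a TAP tag. The deposited files hold 1 library per strain, while the series text speaks of 2 replicates, and whether a file sums both is not known. No value between strains therefore has a replicate check, and no p-value is given. Tags numbered 158105 to 357674 in the tagged libraries and 33412 in No-TAP. All intervals are exact Clopper-Pearson 95% intervals that cover counting error only, and PCR copies make tags dependent on each other.

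Xrn1 is a cytoplasmic exonuclease that digests mRNA from the 5′ end once the cap is gone. Dcp2 is the catalytic subunit of the decapping enzyme. Lsm1 is part of a ring-shaped complex that sits on mRNA tails shortened by deadenylation and promotes decapping, so the 3 act in one decay route. In ChIP-exo an exonuclease trims crosslinked DNA back towards the protein, and sequenced ends pile up at its borders.

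The members took 9.27% of the positions used in Xrn1 (1503 of 16205, 8.83% to 9.73%), 7.08% in Dcp2 (2820 of 39819, 6.83% to 7.34%) and 7.99% in Lsm1 (1756 of 21970, 7.64% to 8.36%). By tags the shares were smaller, at 6.07%, 4.56% and 5.01%. Members were mostly thin. The median member had 2 positions in Xrn1, 4 in Dcp2 and 3 in Lsm1, with maxima of 14, 27 and 25. The Xrn1 count was exactly 2 in 277 members, the Lsm1 count in 203 and the Dcp2 count in 97. In 41 members all 3 counts were 2. Dcp2, the deepest library, was highest alone in 316 members, Lsm1 in 66 and Xrn1 in 32, and the other 104 had a tie at the top.

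Just inside the threshold, 358 members had a lowest TAP count of 2, with a median of 9 summed TAP positions. Just outside it, 772 bins without No-TAP positions missed by 1 position in 1 tagged library, with a median of 6, and that library was Xrn1 in 397 cases, Lsm1 in 285 and Dcp2 in 90. On the other side, 277 bins met the TAP rule but held 1 No-TAP position, with a median of 13.

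**Figure D1:**
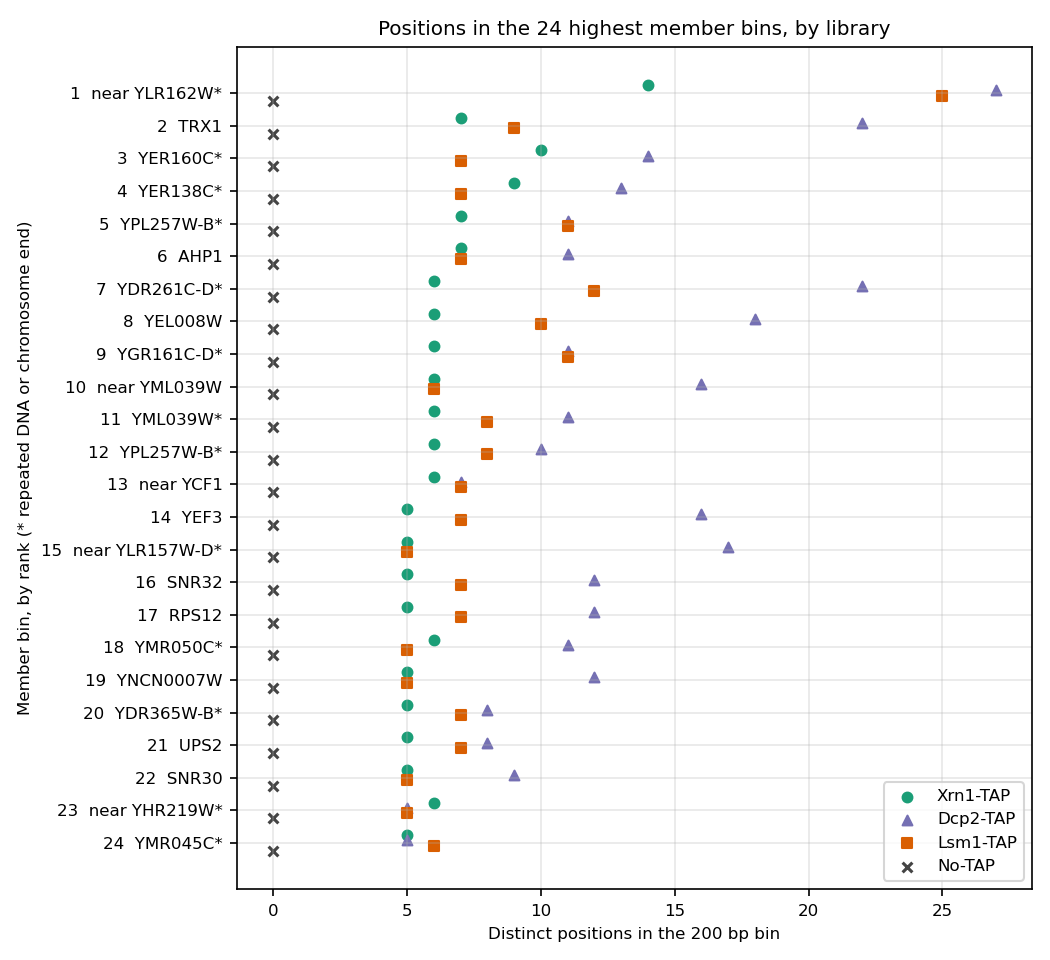
Distinct positions (horizontal axis) in each library for the 24 member bins with the highest lowest-of-3 TAP count, ranked from the top. Each is named by the gene its centre lies at or upstream of, or else as near its nearest gene. The tagged libraries had between 5 and 27 positions in every one of these bins and the No-TAP library 0 by rule. Stars mark bins counted as repeated DNA or at a chromosome end, and the bin just past the frame of YML039W has none.

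The fullest members lay upstream of coding genes, at small RNA genes and in repeated DNA. Of the 24 bins ranked highest by the lowest of their 3 TAP counts, 10 lay in repeated elements described below, 2 in the stretch of chromosome XII next to the ribosomal DNA that holds the 5S rRNA gene copies and 1 at a chromosome end. The first of all was a bin of the 5S region, chr12 index 490000 to 490199, next to YLR162W. It had 14 positions in Xrn1, 27 in Dcp2 and 25 in Lsm1. Reads from near-identical copies cannot be placed with certainty, so this bin and the others in repeats are uncertain.

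Outside repeats, the bin upstream of TRX1, which encodes cytosolic thioredoxin, ranked highest (chr12 index 232000 to 232199). It had 7 positions with 62 tags in Xrn1, 22 with 174 tags in Dcp2 and 9 with 81 tags in Lsm1. The positions lay on both strands, 4 forward and 3 reverse in Xrn1, 11 and 11 in Dcp2, and 4 and 5 in Lsm1. The bin is centred 88 bp upstream of the start codon, and its nearest No-TAP position lay 106 bp from the centre, just past the bin edge. The bin on the gene side of it held 2 positions in Xrn1, 11 in Dcp2, 2 in Lsm1 and 1 in No-TAP.

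AHP1, a thiol peroxidase gene, had a member bin with 7 positions in Xrn1, 11 in Dcp2 and 7 in Lsm1 (chr12 index 368600 to 368799). Here Xrn1 had the most tags, 116, beside 75 in Dcp2 and 79 in Lsm1. The neighbouring bin away from the gene held 1 No-TAP position. YEF3, translation elongation factor 3, had 5, 16 and 7 positions in Xrn1, Dcp2 and Lsm1 (chr12 index 636600 to 636799). Its nearest No-TAP position was 3128 bp away, against 102 to 258 bp at the other 3 genes. RPS12, a protein of the small ribosomal subunit, had 5, 12 and 7 positions in the same order (chr15 index 1028600 to 1028799), with a No-TAP position 102 bp from the bin centre. In all 4 bins the positions of the tagged libraries overlapped in range, between 181 bp upstream of the start codon and 20 bp past it.

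**Figure D2:**
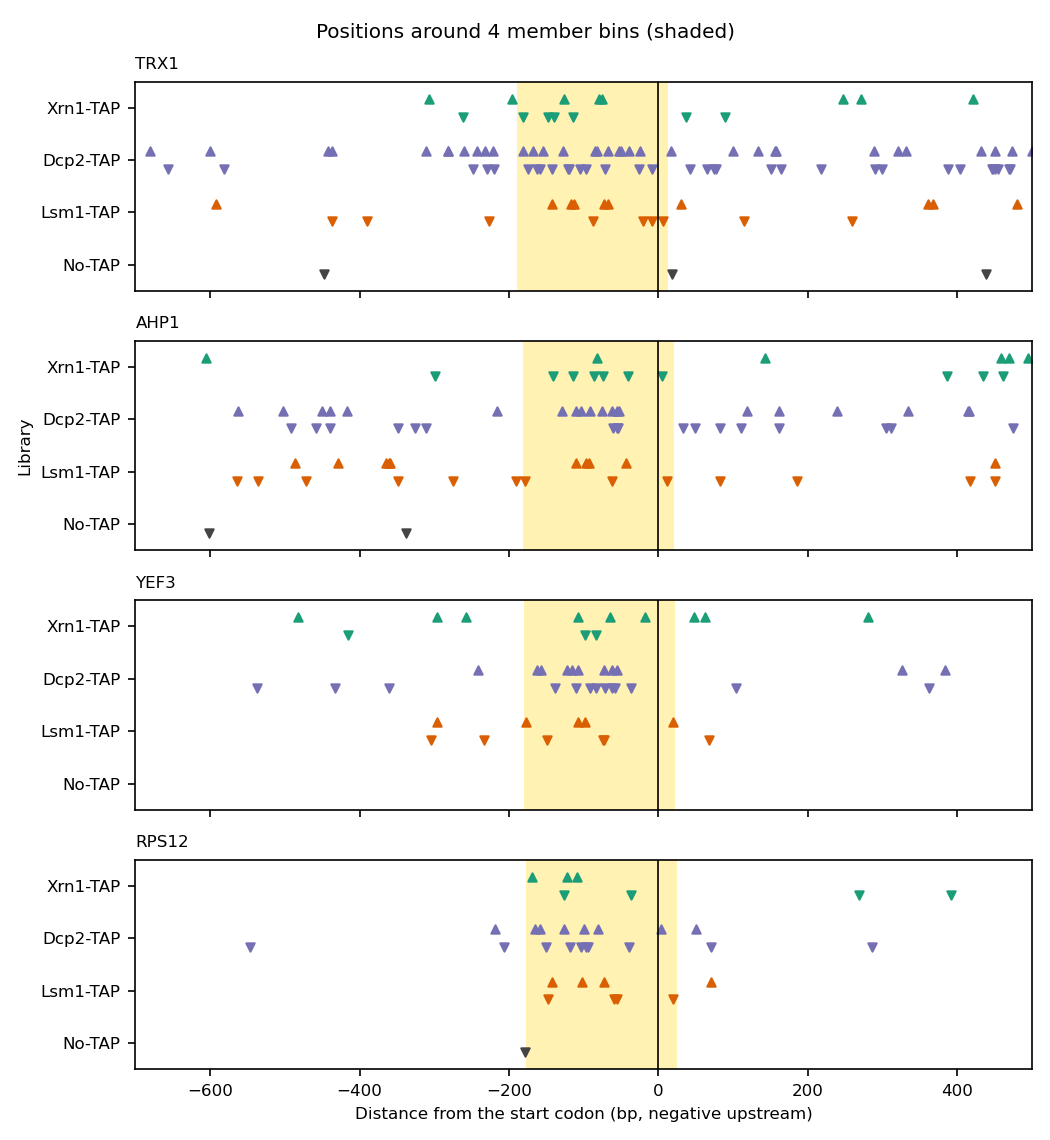
Positions of each library around the start codons of TRX1, AHP1, YEF3 and RPS12, by distance from the start codon in bp; upward triangles are on the strand of the gene, downward ones on the opposite strand, and the member bin is shaded. The member bins hold no No-TAP position by rule; within 700 bp upstream to 500 bp downstream No-TAP had 3 positions at TRX1, 2 at AHP1, 0 at YEF3 and 1 at RPS12.

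Of the 24, 3 more bins not counted as repeats were at RNA genes and are described with their class. The others were upstream of YEL008W and UPS2, near YCF1 and past the long frame of YML039W. The gene table gives no role for YEL008W. UPS2 is a mitochondrial lipid transfer protein, and APS1 lies nearer to that bin. YCF1 is a vacuolar glutathione conjugate transporter. YEL008W had 6, 18 and 10 positions in Xrn1, Dcp2 and Lsm1, UPS2 had 5, 8 and 7, and the bin near YCF1 had 6, 7 and 7. The bin near YCF1 held 120 tags in Xrn1 and 148 each in Dcp2 and Lsm1. The bin past YML039W was centred 205 bp beyond that frame, outside the stretch counted as a repeated element. It had 6, 16 and 6 positions but 9, 17 and 8 tags, so its positions rested on few tags, as in the repeated elements.

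How often a bin lacked No-TAP positions followed how full it was. Of all bins, 93.6% had 0 No-TAP positions, and of the 974 bins with at least 2 positions in each tagged library (1.71% of all bins), 53.2% did (50.0% to 56.4%). These are the 518 members, and the other 456 shared bins held 731 No-TAP positions. Within the 974, the share without a No-TAP position was 78.9% (71.4% to 85.2%) at 6 or 7 summed TAP positions, 63.0% to 67.6% in the 3 classes between 8 and 14, 44.2% (36.0% to 52.6%) at 15 to 19, 27.3% (20.6% to 34.9%) at 20 to 29 and 6.41% (2.11% to 14.3%) at 30 or more. No-TAP positions per 100 TAP positions were 3.28 in the first of these classes and 5.79 in the last, beside 5.35 over all bins. The 5.35 also counts 835 No-TAP positions in bins without any TAP position, so it is not a like measure and is too high beside the classes. Members accordingly had fewer TAP positions than the shared bins with No-TAP positions, a median of 10 against 17. Only 5 members had 30 or more summed TAP positions.

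**Figure D3:**
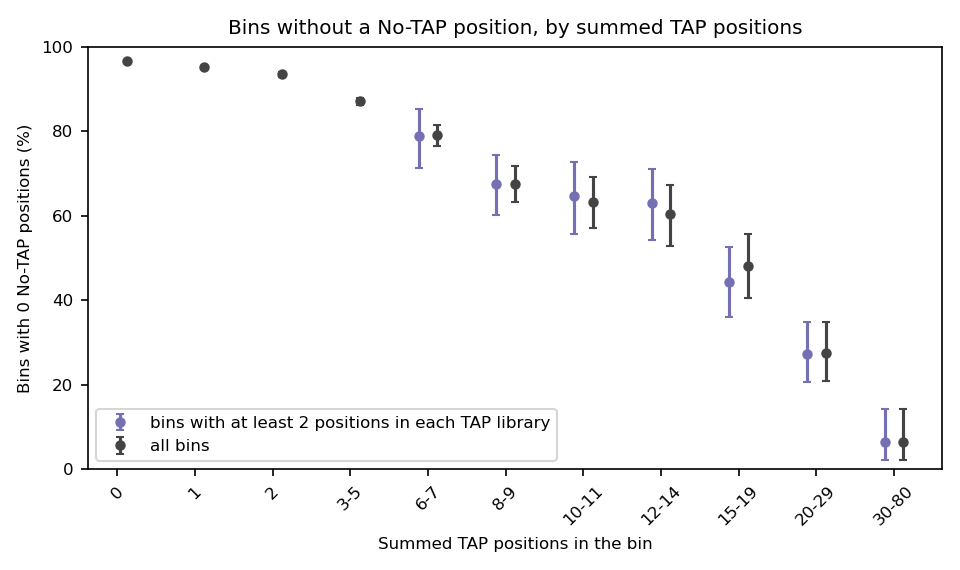
Percentage of bins with 0 No-TAP positions (vertical axis, exact 95% intervals) by the summed positions of the 3 tagged libraries in the bin, for bins with at least 2 positions in each tagged library and for all bins. The share falls to 6.41% in bins with 30 or more TAP positions, against 96.8% in bins with none.

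The No-TAP library held 4170 positions in the bins used, against 16205 to 39819 in the tagged ones. Absence through lower depth and absence through a missing tag cannot be told apart in a single bin.

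No-TAP positions were common beside members. A No-TAP position lay in a neighbouring bin for 270 of 518 members (52.1%, 47.7% to 56.5%), against 56.6% (51.9% to 61.2%) of the other shared bins and 12.1% (11.8% to 12.3%) of all bins. The first 2 intervals overlap. Leaving out the bins removed as repeats below, the shares were 44.8% (39.6% to 50.0%) of 364 members and 44.4% (38.6% to 50.4%) of 286 other shared bins. That removal was not complete. Among the 24 highest members, 17 had a No-TAP position within 200 bp of their centre, and 21 within 300 bp. The description as shared by the tagged factors only thus held for the bin itself, and in 270 members not for the 200 bp on either side of it.

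Few members lay far from any No-TAP position. In 49 of them (9.46%, 7.08% to 12.3%) the nearest one was over 2000 bp from the centre, against 36.2% (35.8% to 36.7%) of all 53284 bins with 0 No-TAP positions. The median distance was 280.5 bp for members, against 1374 bp for all such bins. The 49 had a median of 8 summed TAP positions and a maximum of 28, and 22 lay upstream of coding genes, 7 in coding regions and 4 at tRNA genes, where the 518 members had 147, 189 and 30. After YEF3, the fullest was upstream of AAR2, a splicing factor gene, with 5, 17 and 4 positions in Xrn1, Dcp2 and Lsm1 and a distance of 2950 bp. SPO24 had 5, 7 and 3, RPL41A of the large ribosomal subunit 2, 10 and 4, SET2, a histone methyltransferase gene, 2, 8 and 4, and ACO1, aconitase, 3, 9 and 2. This choice of far bins was made with their values in view.

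Relative to genes, which the rule did not use, members were concentrated in promoters, small RNA genes and repeats. Centres of 159 members (30.7%, 26.7% to 34.9%) lay within 300 bp upstream of a start codon, against 30.9% (26.7% to 35.4%) of the shared bins with No-TAP positions and 13.4% (13.1% to 13.7%) of all bins. Coding regions held 38.4% of members (34.2% to 42.8%), against 39.7% (35.2% to 44.4%) and 73.0% (72.6% to 73.3%). Leaving out the repeated elements with 300 bp upstream, the 5S copies and 1000 bp at chromosome ends, 364 members remained. This did not remove all repeats. Bins just past a frame, as at YML039W, and bins at YRF1-1 and YRF1-4 beyond 1000 bp from an end stayed. Of the 364, 37.9% (32.9% to 43.1%) lay upstream and 20.9% (16.8% to 25.4%) in coding regions. For the shared bins with No-TAP positions, treated alike, it was 42.7% (36.9% to 48.6%) and 16.1%. On these measures the intervals of the 2 kinds of shared bin overlapped, and both differed from all bins by more than counting error. Upstream windows of 2 divergent genes held 11 members (2.12%), against 2.19% of the shared bins with No-TAP positions and 1.42% of all bins.

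**Figure D4:**
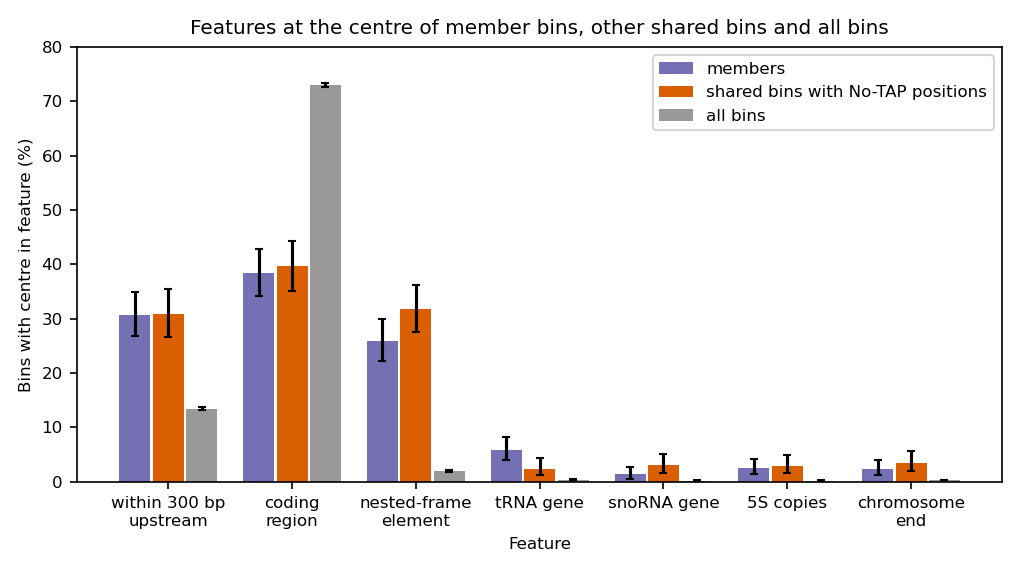
Percentage of bins whose centre lies in each feature (exact 95% intervals as error bars) for the members, for the shared bins with No-TAP positions and for all bins. Both kinds of shared bin exceed all bins in upstream windows, small RNA genes and repeats and lie below them in coding regions; one bin can count under several features.

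In member bins, 31.4% of Xrn1, 33.9% of Dcp2 and 29.7% of Lsm1 positions had their nearest start codon 1 to 300 bp downstream, against 24.3%, 25.9% and 22.3% of the positions outside shared bins. In the shared bins with No-TAP positions the shares were close to the members', at 30.0%, 31.6% and 27.5%, and 32.4% for their No-TAP positions. The median member position lay 63, 65 and 41 bp upstream of the nearest start codon in Xrn1, Dcp2 and Lsm1. The spread was wide, so these medians mark no typical place. With upstream distances negative, the quartiles were -299.5 and 802 bp in Xrn1, -276.2 and 671.2 bp in Dcp2, and -281.5 and 767.2 bp in Lsm1. In the shared bins with No-TAP positions the medians lay 53, 58 and 134 bp past the start codon. The best lag between indices and gene table, taken over a whole chromosome, was up to 30 bp. Shifts within a chromosome were not measured, so single distances may be off by more.

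Among RNA genes, tRNA genes, which are transcribed by RNA polymerase III from promoters inside the gene, held 30 members, 5.79% (3.94% to 8.17%), against 2.41% (1.21% to 4.28%) of the shared bins with No-TAP positions and 0.399% (0.349% to 0.454%) of all bins. Of the 41 shared bins at tRNA genes 73.2% (57.1% to 85.8%) were members. Their median of 9 summed TAP positions was low, and of all shared bins with 8 or 9 positions 67.6% (60.2% to 74.5%) were members; the part of this fullness in the share was not tested. The members touched 31 of 259 tRNA genes. Within these bins, 62 of 81 Xrn1 positions lay inside the gene (76.5%, 65.8% to 85.3%), 94 of 137 Dcp2 positions (68.6%, 60.1% to 76.3%) and 48 of 85 Lsm1 positions (56.5%, 45.3% to 67.2%). In the shared tRNA bins with No-TAP positions it was 58.8%, 54.5% and 61.0%, and 9 of 13 No-TAP positions (69.2%). By the lowest of the 3 TAP counts, the first tRNA bin was at YNCN0007W and had 5, 12 and 5 positions, and 7, 74 and 8 tags, in Xrn1, Dcp2 and Lsm1. The next in that order, at the neighbouring genes YNCJ0013C and YNCJ0014C, had 3, 13 and 9 positions, more in sum. No tRNA bin among the members was removed as a repeat. Likeness between tRNA gene copies was not checked, so the placement of tags there is uncertain where copies match.

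For snoRNA genes, whose RNAs guide rRNA modification and processing, the share of members was also above that of all bins, and the interval overlapped that of the other shared bins. They held 7 members (1.35%, 0.545% to 2.76%), against 3.07% (1.69% to 5.10%) of the shared bins with No-TAP positions and 0.183% (0.149% to 0.221%) of all bins. Of the 21 shared bins there 33.3% (14.6% to 57.0%) were members. Their shared bins were full, with a median of 26 summed TAP positions, and in the class of 20 to 29 positions 27.3% of shared bins were members; the part of fullness in the share was not tested. SNR32, a box H/ACA snoRNA gene, had 5, 12 and 7 positions in Xrn1, Dcp2 and Lsm1. SNR30, needed for 18S rRNA processing, had 5, 9 and 5. None of the 6 spliceosomal snRNA genes was touched by a member, while 4 had a shared bin with No-TAP positions. Of other RNA genes, RUF5-2, which overlaps CUP1-2, held 2 members, with 3, 12 and 3 and with 3, 4 and 3 positions. Its copy RUF5-1 also held 2, with 2, 11 and 2 and with 2, 4 and 2. Placement between these copies is uncertain, and their bins were not removed as repeats. SUT053 held the last of the 5 members at other RNA genes, with 2, 7 and 3 positions.

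More than 1 in 4 members lay in one kind of repeated element. In 40 places outside chromosome XI a long reading frame of 4816 to 5410 bp shares its start codon with a short one of 1242 to 1437 bp. The gene table names neither. Such nesting is the known layout of the Gag and Gag-Pol frames of Ty retrotransposons, which move through an RNA copy. With 300 bp upstream, these elements make up 1.96% of all bins and held 134 members (25.9%, 22.1% to 29.9%), against 31.8% (27.5% to 36.3%) of the shared bins with No-TAP positions. At least 1 member lay in 36 of the 40. YER160C on chromosome V held 7 members, including a run of 3 adjacent bins in which Xrn1 had 4, 5 and 10 positions, Dcp2 9, 11 and 14, and Lsm1 4, 3 and 7. YDR261C-D on chromosome IV held 5, with the fullest at 6, 22 and 12 positions in Xrn1, Dcp2 and Lsm1.

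The elements differed by the length of the long frame. The 24 with a frame of 5269 bp had a median of 54 positions in Xrn1, 127 in Dcp2, 79.5 in Lsm1 and 14 in No-TAP, and 94 of their 671 bins were members (95% interval 11.5% to 16.9%). The 10 with a frame of 5314 bp had medians of 23, 41, 26 and 2, and 15 of 280 bins were members (5.36%, 3.03% to 8.68%). No library had an element of the 5314 bp kind as full as the emptiest of the 5269 bp kind. The No-TAP library was thus high in the first kind as well, at 0.501 positions per bin, against 0.0821 in the second kind and 0.0732 over all bins.

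Along the elements, the fullest 200 bp step of each library lay in the first 600 bp of the frame. In the 200 bp before the start codon there were 3.75 positions per element in Xrn1, 9.5 in Dcp2, 4.17 in Lsm1 and 0.525 in No-TAP. At 400 to 600 bp into the frame the numbers were 4.6, 11.3, 6.47 and 0.925, and at 3000 to 3200 bp they were 0.75, 1.73, 0.75 and 0.05. All 4 libraries had more positions again at 5400 to 5600 bp, past the end of the frame in most copies, with 3.88, 9.3, 4 and 0.7. The 134 members were spread over the element, 19 upstream of the start codon, 41 in the first 1400 bp of the frame and 74 further on.

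**Figure D5:**
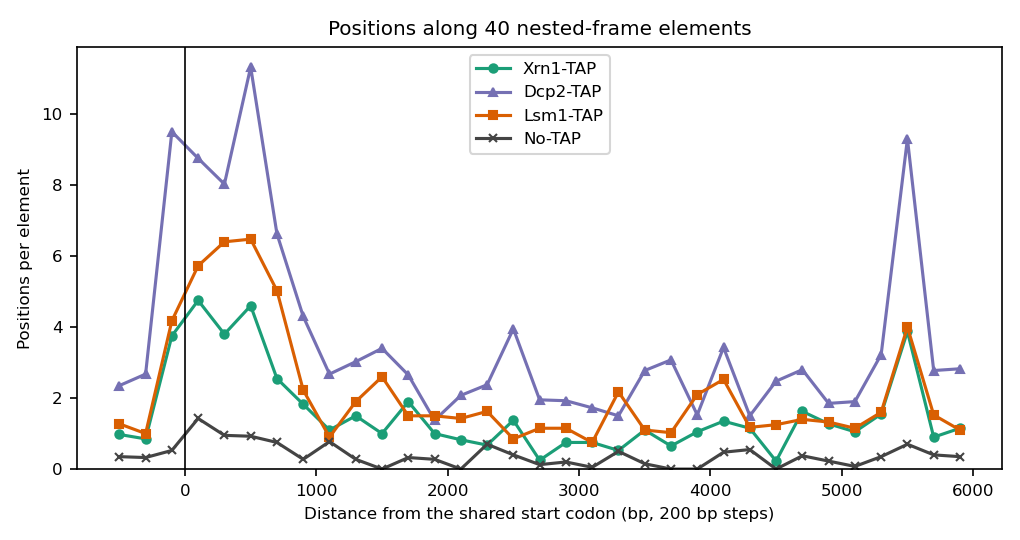
Distinct positions per element in 200 bp steps along the 40 elements with nested reading frames, by distance from the shared start codon in bp, 1 line per library. All libraries are highest within 600 bp of the start codon, and Dcp2 reaches 11.3 positions per element at 400 to 600 bp.

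Positions in these elements rested on few tags. In members within them the mean was 1.56 tags per position in Xrn1, 1.48 in Dcp2 and 1.59 in Lsm1, and 71.3%, 75.2% and 69.0% of positions had a single tag. Leaving out the members removed as repeats, the means were 7.32, 6.64 and 6.96, and 31.6%, 29.5% and 32.3% had a single tag. Some repeats stayed in that set, as described above. Among the 24 copies with a 5269 bp frame, 46.5% (40.7% to 52.3%) of member positions in Xrn1, 58.2% (54.0% to 62.3%) in Dcp2 and 51.6% (46.4% to 56.8%) in Lsm1 recurred at the same offset and strand in another copy of the same library. Over all positions of these copies the shares were nearly the same, at 46.0%, 57.4% and 50.8%, and 43.5% in No-TAP. How tags that match several copies were placed is not given in the sources used here, and its part in these counts was not tested.

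Gene groups were read through the 184 of 5681 coding genes (3.24%, 2.79% to 3.73%) that had a member centre in their 300 bp upstream window, and 159 had a shared bin with No-TAP positions there. The median gene had 3 summed TAP positions in that window. Core histone genes, which package DNA, had members at 4 of 8 (50%, 15.7% to 84.3%), HHF2, HHT1, HTA1 and HTB2. They had a shared bin with No-TAP positions at 3, and a median of 21 TAP positions. HHF2 had 4, 17 and 5 positions and HHT1 4, 9 and 6 in Xrn1, Dcp2 and Lsm1. Ribosomal protein genes had members at 11 of 79 for the large subunit (13.9%, 7.16% to 23.6%) and 9 of 54 for the small one (16.7%, 7.91% to 29.3%), with medians of 12 and 11. Shared bins with No-TAP positions were found at 16 of the 79 and 9 of the 54. RPP1B, of the ribosomal stalk, had 4, 7 and 5 positions, RPL27B 6, 7 and 3, and RPS11A 3, 9 and 4.

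Glycolytic and fermentation genes had members at 4 of 19 (21.1%, 6.05% to 45.6%), with a median of 13. PGK1, phosphoglycerate kinase, had 4, 13 and 8 positions in Xrn1, Dcp2 and Lsm1 and PDC1, pyruvate decarboxylase, 6, 8 and 4; ENO2 and PGI1 were the others. More genes of this list, 7, had a shared bin with No-TAP positions. Chaperone genes had members at 4 of 24 (16.7%, 4.74% to 37.4%), SSA1, SIS1, HSP12 and HSP104, and a shared bin with No-TAP positions at 5, with a median of 11. SSA1, a cytosolic Hsp70, had 4, 5 and 5 positions and SIS1, an Hsp40, 2, 6 and 3. Redox genes had 2 of 18 (11.1%, 1.38% to 34.7%), TRX1 and AHP1, an interval that holds the 3.24% of all genes. A shared bin with No-TAP positions was found at 2 redox genes. The median of that list was 3, that of all genes.

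Other lists had few members. Translation factors had 2 of 29, YEF3 and SUP35 (the release factor eRF3), the second with 4, 4 and 2 positions in Xrn1, Dcp2 and Lsm1. Lipid synthesis had 2 of 31, OPI3 of phosphatidylcholine synthesis with 4, 5 and 3, in a bin centred inside MOG1, and ITR1, an inositol transporter, with 3, 3 and 4. Amino acid synthesis had 3 of 53, among them SHM2 with 3, 3 and 3 and LEU9 with 2, 4 and 6. Ribosome biogenesis had 1 of 40, CBF5 with 4, 4 and 2, and the cell wall list 1 of 25, HSP150 with 3, 9 and 3. The glucose transport and signalling list had 1 of 17, HXT1, with 3, 4 and 3 positions, and the cell cycle list 1 of 23, NDD1, whose bin it shares with NUD1, with 3, 2 and 2. Their shares lay between 2.50% and 6.90%, and each interval held the 3.24% of all genes. A shared bin with No-TAP positions was more frequent than a member at 7 lipid synthesis genes and 6 translation factor genes. The medians of these lists were 8 and 7 TAP positions, above the 3 of all genes. The other lists of this paragraph had 0 to 2 such genes and medians of 3.5 to 6.

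No member lay upstream of the 31 genes of cytoplasmic mRNA decay, the 3 tagged factors included, and a count of 0, taken as up to 3 genes, allows a share of up to 9.68%. The same count, 0 of 31, was found for oxidative phosphorylation, and 0 of 27 for genes silent in glucose, which on the same terms allows up to 11.1%. At these list sizes a share near that of all genes was not detectable as different.

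The spacing of the members' positions did not enter the rule. Reverse-strand positions lay 10 to 49 bp downstream of a forward-strand one more often than upstream of it, in 226 pairs against 134 in Xrn1, 1074 against 793 in Dcp2 and 304 against 232 in Lsm1. The downstream shares were 62.8%, 57.5% and 56.7%, against 60.7%, 60.0% and 60.1% in the shared bins with No-TAP positions, whose No-TAP positions gave 61.9%. Outside shared bins they were 55.4%, 57.0% and 57.3%, and 62.3% in No-TAP, so the members' Dcp2 and Lsm1 shares were close to that level. One position enters several pairs, so counting intervals of these shares are too narrow. Exact coincidence between libraries was rare. Of the members' positions, 7.65% in Xrn1, 5.32% in Dcp2 and 7.57% in Lsm1 had the same index and strand in another tagged library, against 10.4%, 6.92% and 9.80% in the shared bins with No-TAP positions, which are denser, and 1.52%, 0.809% and 1.04% elsewhere. By the rule members are dense, with means per bin of 2.90 positions in Xrn1, 5.44 in Dcp2 and 3.39 in Lsm1. Over all bins the means were 0.285, 0.699 and 0.386. More positions give more coincidences, so the contrast with elsewhere is a description only. Only 10 sites were found in all 3 tagged libraries within members.

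Most members had no adjacent member, but 97 of 518 (18.7%) did, while members made up 0.91% of all bins. They formed 468 runs, single bins included, of which 44 had 2 bins and 3 had 3 bins. A shared bin with No-TAP positions was touched by 110 members (21.2%), while such bins were 456 of all 56934. Members thus lay next to each other and to other shared bins more often than their share of bins. The cause was not tested. By chromosome, members made up between 0.409% of bins on chromosome IX and 1.53% on chromosome XII. Of the 81 members on chromosome XII, 13 lay in the stretch with the 5S copies.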

How the data were processed

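Deposited values are tag counts per position on the forward strand, the reverse strand and their sum, per the file headers. The labels' protocols give shearing to a median of 250 to 300 bp and lambda and RecJf exonuclease digestion. Not given in the sources used here: aligner, build, filters, duplicate handling. Tags numbered 357674 in the deepest library (Dcp2-TAP), 211236 in Lsm1-TAP, 158105 in Xrn1-TAP and 33412 in No-TAP.

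Indices were divided into 200 bp bins, and genes taken from the R64 table by bin centre, strand by locus tag. The lag placing most positions 41 to 140 bp upstream of start codons was at most 30 bp on the 15 chromosomes used. Indices are printed as deposited. Named bins were the 24 with the highest lowest-of-3 TAP count, and the 2 highest of each gene list and RNA class. Members, lists and tests were chosen with earlier results of these data known. The promoter motif comparison was not run, as no sequence was used here. Python 3.11.15, pandas 2.3.3 and scipy 1.17.1 were used. The code was run on simulated positions with planted bins that met the rule by design, which checks the code only. Each strain is its own group of 1 library, so shares were compared by exact intervals, without a test. Alternatives changed the bin size and offset, the position and tag minimums, the windows and the repeats kept.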

Additional observations from a re-analysis of the deposited data

How the results depend on the processing

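With 57 alternative values, 28 stayed within the main interval (for the bin count, within 1.5 times) and 29 moved. The number of members was 343 with 100 bp bins, 2644 with at least 1 position in each tagged library, 160 with at least 3, 224 with positions of at least 2 tags and 248 with No-TAP also absent from both neighbouring bins. The share without No-TAP positions was 74.0%, 37.5% and 56.4% at at least 1, at least 3 and at least 2 tags. The upstream share was 36.7% with 100 bp bins, 38.8% with at least 3 positions, 42.0% with 2 tags, 36.7% with empty neighbours, 16.99% and 40.3% with windows of 150 and 500 bp, 40.3% with any overlap and 37.9% without repeats. The RNA gene share was 4.88% with 400 bp bins, 4.80% with at least 1 position, 4.63% without flanks and 11.5% without repeats. The share with a No-TAP neighbour was 31.5%, 65.6%, 43.3% and 44.8% with at least 1, at least 3, 2 tags and without repeats. The coincident Dcp2-TAP share was 7.85% and 3.43% with 100 and 400 bp bins, 3.45% and 6.53% with at least 1 and 3 positions, and 4.39% with positions within 5 bp counted once. The alternative without repeats left some repeats in, as described above, and was chosen after seeing the data. The cause of the other shifts was not tested. No paired analysis was possible because each strain has 1 library. The depth of the No-TAP library, a mean of 0.0732 positions per bin, limits what its absence from a bin can show.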
